A study of Syringa oblata with 2 samples.

Results

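The 36 unigenes described here were those whose best Swiss-Prot description named a thaumatin or osmotin, a pathogenesis-related protein, STH-2, a major allergen of the Pru series, an MLP-like protein or a major latex protein. Of the 73159 unigenes in the deposited table, 40 matched that text, and the 4 whose best match in the Nr protein database was rice (*Oryza*) were left out. The 36 comprised 17 thaumatin-like proteins (also called PR-5), 14 proteins of the PR-10 type, 3 of the PR-1 type and 2 MLP-like proteins (MLP, for major latex protein). The rule used annotation text only and no measured value, though it was set with earlier results of these data known.

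Pathogenesis-related (PR) proteins are small plant proteins first noticed in leaves infected with viruses or fungi. Thaumatin-like proteins, named after the sweet-tasting protein of katemfe fruit, are compact, disulfide-rich and mostly secreted, and several bind or cut fungal cell wall glucan. PR-1 proteins belong to the CAP family, are secreted, bind sterols, and in *Arabidopsis* PR1 is the usual marker of salicylic acid signalling. PR-10 proteins and MLPs stay mostly inside the cell and share the Bet v 1 fold, a shell around a greasy cavity that binds small ligands. Many thaumatin-like and PR-10 proteins are known from the allergens of fruit and pollen whose names the annotation carries.

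Leaves of *Syringa oblata*, the early lilac, were compared between trees under shade nets, Z1 (40% to 50% shading, so that 50% to 60% of the natural light reached them), and trees in natural growth without a net, Z0. Each condition had 2 libraries (Z1-1 and Z1-2, Z0-1 and Z0-2), which the methods call biological repeats, and they describe 5 outdoor trees per condition and leaves taken in September after nets set in May. How many trees went into a library is not given in the sources used here, and the p-values reflect the differences among these 4 libraries. The sample labels list 1 sample per condition and name genomic DNA as the molecule, while the extraction text and the methods describe RNA. The names of the columns tie each repeat to its condition. Values are TPM, a share of all transcripts that is set to one common total for each library, so sequencing depth is unknown.

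Markers of leaf mesophyll were present and alike in all libraries: 22 chlorophyll a-b binding unigenes summed to 7863 and 8118 TPM in Z1, against 7986 and 8058 TPM in Z0. Carlaviruses, which infect many plants, were also represented, and the unigenes matched to them took 0.147% and 0.0505% of all TPM in Z1, against 22.8% and 13.9% in Z0. Unigenes matched to rice took 0.244% and 3.30% in Z1, against 0.296% and 0.294% in Z0. The single unigene matched to the fungal and oomycete genera searched stayed between 0.65 and 1.12 TPM in all 4 libraries. The net, the trees and the carlavirus level split the libraries in the same way, so they cannot be told apart here, and in whole leaves a change in RNA per cell cannot be told apart from a change in the number of cells that make it.

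The genes as a group were far more abundant under the net, and most of that came from a few thaumatin-like unigenes. The 36 summed to 11704 and 5474 TPM in Z1-1 and Z1-2, against 786 and 1469 TPM in Z0-1 and Z0-2, which was 7.62 times as much by the means of the sums. They took 1.17% and 0.548% of all expression in Z1, against 0.0786% and 0.147% in Z0. Both Z1 sums lay above both Z0 sums. The ratio to the Z0 mean was 4.86 when only Z1-2 stood for Z1 and 10.4 when only Z1-1 did. The 4 most abundant members, all thaumatin-like, made up 90.7% and 87.6% of the sum in Z1, against 78.9% and 85.0% in Z0.

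**Figure D1:**
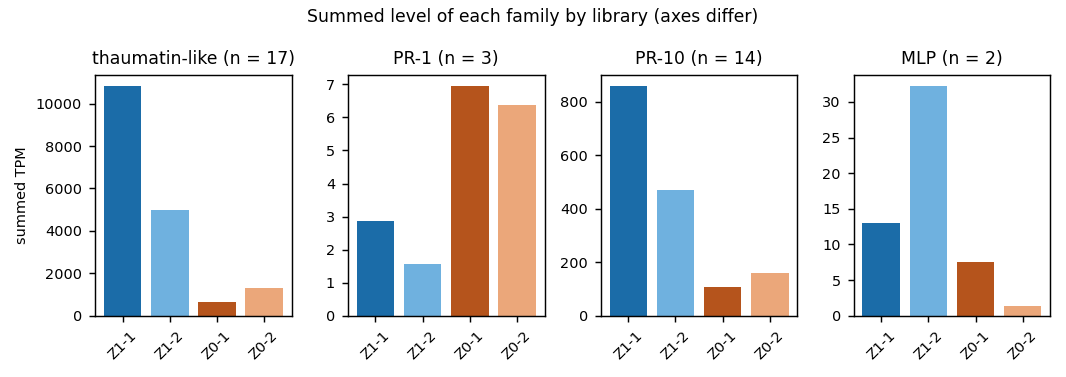
Summed TPM of each family in each library, with bars from 0 and a separate vertical axis for each panel. The thaumatin-like and PR-10 sums were higher in both Z1 libraries than in both Z0 libraries (for thaumatin-like 10829 and 4970 TPM in Z1, against 665 and 1302 TPM in Z0), while the 3 PR-1 unigenes summed to 2.86 and 1.58 TPM in Z1, against 6.95 and 6.37 TPM in Z0.

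The comparison between shaded and unshaded leaves was then made unigene by unigene. With limma on log2(TPM + 1) over all 73159 unigenes, a call meaning an adjusted p under 0.05 and more than a doubling or halving, 7 members were higher in Z1, 1 was lower and 28 were not called. Over all unigenes 3.20% were called higher and 1.80% lower, against 19.4% and 2.78% of the members. With an unadjusted p under 0.05 and the same fold threshold, 16 members were higher and 5 lower in limma. Over all unigenes the shares were 16.5% and 7.71%. Both Z1 libraries lay above both Z0 libraries in 19 members, or 52.8%, beside 41.5% of all unigenes. They lay below in 9 members, or 25.0%, beside 18.2%, and the other 8 members overlapped. The median log2 fold change was 0.92 over the members and 0.45 over all unigenes. With carlavirus-matched unigenes left out and TPM rescaled, these medians were 0.673 and 0.255. As TPM is a share, the carlavirus share of Z0 lowers the TPM of the other unigenes there. Fold changes are of TPM + 1 and so understate the change of low unigenes.

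The calls rested on all 4 libraries together. The adjusted p of the 8 called members lay between 0.0334 and 0.0477 in limma. With a Z1 library left out fewer calls were made, and with a Z0 library left out none was. The log2 fold changes of the 8 kept their signs in each of these fits. Of the 7 calls only DN32442_c1_g5 was made again without either Z1 library, and a pseudocount of 5 or a prior without trend also left no call among the members or among all unigenes. The call lower in Z1 was made in none of these fits, while a filter at 5 TPM gave 14 calls higher and none lower, and the fit with a replicate block 11 and 1.

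**Figure D2:**
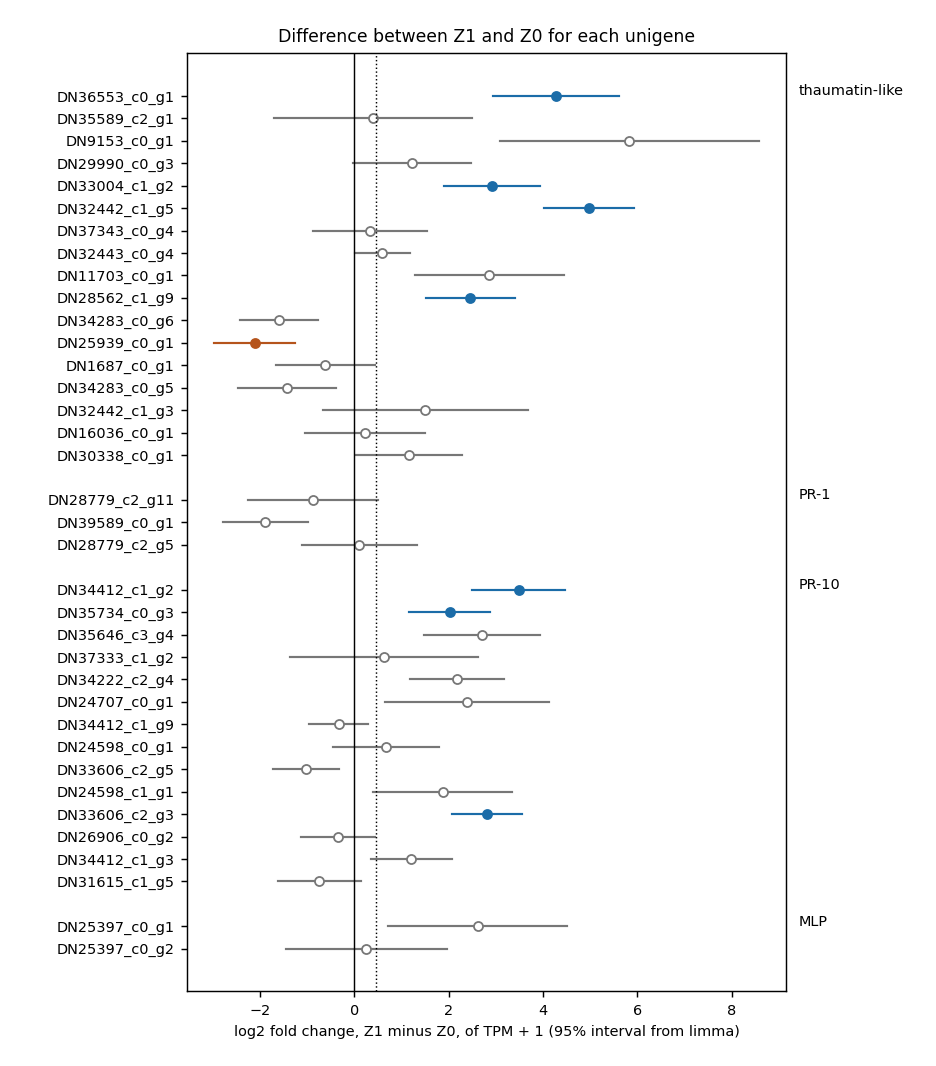
Log2 fold change of TPM + 1, Z1 minus Z0, for each of the 36 unigenes by family, with the 95% interval from limma. Filled points are called (blue higher, orange lower), the solid line is 0 and the dotted line is the median of all unigenes, 0.45. The intervals of DN36553_c0_g1 (4.27) and DN32442_c1_g5 (4.98) lie well to the right, and the PR-1 points lie left of the dotted line.

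The thaumatin-like family held the most abundant member and the only called decrease. Of its 17 unigenes, 4 were called higher in Z1, 1 was called lower and 12 were not called. The called shares were 23.5% and 5.88%, beside 3.20% and 1.80% of all unigenes. Its median log2 fold change was 1.17, and 13 of the 17 were above 0, as were 50467 of all 73159 unigenes. DN36553_c0_g1, best matched by the kiwifruit thaumatin-like protein known as the allergen Act d 2, measured 7312 and 3930 TPM in Z1, against 190 and 402 TPM in Z0. It was the 8th and 21st most abundant unigene of Z1-1 and Z1-2, and the 337th and 182nd of Z0-1 and Z0-2. Both Z1 libraries stood far above both Z0 libraries, with a ratio of means of 19.0 and a log2 fold change of 4.27 ± 0.50 (SE; adjusted p = 0.0371, limma). Without it the other 35 members, which held 37.5% and 28.2% of the total in Z1, against 75.8% and 72.7% in Z0, summed to 4392 and 1544 TPM in Z1, against 596 and 1068 TPM in Z0. That smaller sum was still higher in both Z1 libraries than in both Z0 libraries.

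DN33004_c1_g2, like the thaumatin-like protein 1 of pear, had 121 and 86.8 TPM in Z1, against 8.98 and 17.6 TPM in Z0 (log2 fold change 2.93 ± 0.39 SE, adjusted p = 0.0400, limma). Its Z1 libraries were close to each other and did not overlap those of Z0. DN32442_c1_g5, a fragment of 308 nt like the kiwifruit protein, was almost confined to Z1, at 50.2 and 27.1 TPM, against 0.21 and 0.19 TPM in Z0 (4.98 ± 0.36, adjusted p = 0.0334, limma). DN28562_c1_g9, of the same best match, had 7.34 and 4.20 TPM in Z1, against 0.07 and 0.34 TPM in Z0 (2.46 ± 0.36, adjusted p = 0.0439, limma). Both of these were near the lower end of the scale in Z0 and distinct from it in each Z1 library.

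The opposite pattern was that of DN25939_c0_g1, a thaumatin-like protein whose best match is from *Arabidopsis*. It had 0.14 and 0.50 TPM in Z1, against 5.52 and 3.85 TPM in Z0, and was called lower (log2 fold change -2.10 ± 0.32 SE, adjusted p = 0.0462, limma). Its levels were low throughout, with no overlap. A pair of short unigenes of one Trinity component, DN34283_c0_g5 and DN34283_c0_g6, had the same order of conditions without a call. DN34283_c0_g5 had 0.00 and 0.69 TPM in Z1, against 2.48 and 2.54 TPM in Z0 (-1.43 ± 0.39, not called in limma). DN34283_c0_g6, annotated as *Arabidopsis* PR-5, had 0.80 and 0.75 TPM in Z1, against 3.42 and 5.55 TPM in Z0 (-1.60 ± 0.31, adjusted p = 0.0598, limma).

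A pair of thaumatin-like unigenes was best matched by Ole e 13, the thaumatin-like protein of olive, which is a relative of lilac in the same family, and they differed from each other. DN9153_c0_g1 had 1565 and 218 TPM in Z1, against 5.80 and 14.6 TPM in Z0. Its log2 fold change of 5.83 was the highest of all 36 members, but the Z1 libraries lay 7.19-fold apart, the SE was 1.04 and it was not called (adjusted p = 0.0531, limma). DN35589_c2_g1 had 961 and 222 TPM in Z1, against 251 and 489 TPM in Z0. There Z1-2 fell below both Z0 libraries and Z1-1 lay above them, so the conditions overlapped (0.40 ± 0.79, adjusted p = 0.730, limma). Its 95% interval of -1.70 to 2.49 leaves changes in both directions within reach of these data.

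DN29990_c0_g3, a P21-like protein by its Nr match, was abundant in both conditions, with 777 and 425 TPM in Z1, against 174 and 345 TPM in Z0. Z1 was higher in both libraries, but Z1-2 and Z0-2 were near each other, and the difference was not called (1.23 ± 0.47, adjusted p = 0.176, limma). DN11703_c0_g1, annotated as PR-5, had 4.52 and 16.1 TPM in Z1, against 0.29 and 0.38 TPM in Z0 (2.87 ± 0.59, adjusted p = 0.0651, limma). The remaining 6 thaumatin-like unigenes, at no more than 28.1 TPM in any library, had no call and log2 fold changes between -0.61 and 1.51. Among them DN32442_c1_g3 was listed at 0 in both Z0 libraries and at 5.06 and 0.34 TPM in Z1.

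**Figure D3:**
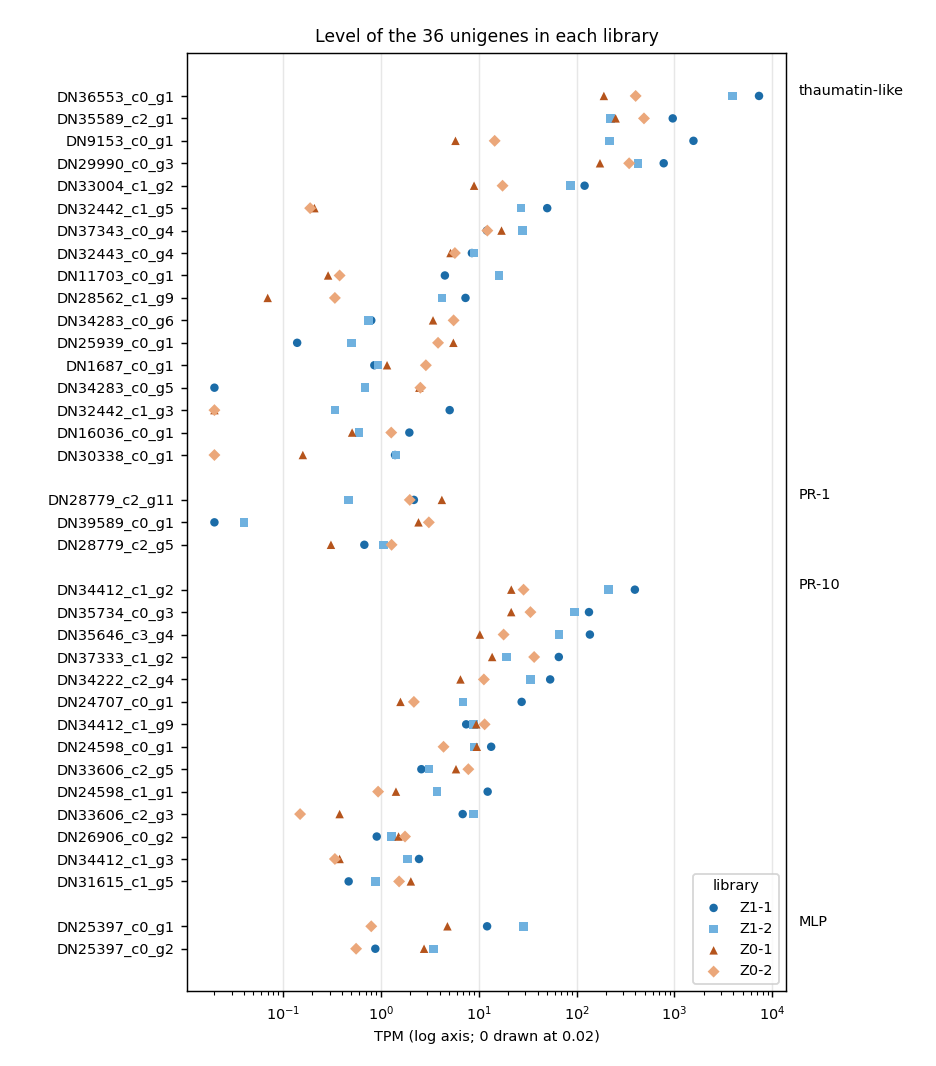
TPM of the 36 unigenes in each library on a log axis, by family and in order of mean level, with values of 0 placed at the left edge. In the upper rows of the thaumatin-like and PR-10 families the Z1 points (blue) mostly lie to the right of the Z0 points (orange), with DN36553_c0_g1 at 7312 and 3930 TPM in Z1, against 190 and 402 TPM in Z0, while several of the scarce unigenes have the reverse order.

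The PR-10 unigenes summed to more in both Z1 libraries than in both Z0 libraries, with members on either side. Of 14 unigenes, 3 were called higher in Z1 (21.4%, beside 3.20% of all unigenes) and none lower (1 at an unadjusted p under 0.05, limma). The median log2 fold change of the 14 was 1.54. Their sum was 859 and 470 TPM in Z1, against 106 and 159 TPM in Z0. Both Z1 libraries lay above both Z0 libraries in 8 of the 14 (57.1%, beside 41.5% of all unigenes) and below them in 4 (28.6%, beside 18.2%). DN34412_c1_g2, like the apricot allergen Pru ar 1, was the most abundant, with 394 and 212 TPM in Z1, against 21.6 and 28.8 TPM in Z0. The Z1 libraries stood well clear of Z0, at 12.0 times the mean (log2 fold change 3.48 ± 0.37 SE, adjusted p = 0.0356, limma).

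The potato proteins STH-2 and STH-21, PR-10 members known as transcripts induced by wounding or fungal elicitors, were the best match of 4 unigenes. DN35734_c0_g3 (STH-21) had 134 and 94.9 TPM in Z1, against 21.5 and 33.8 TPM in Z0, and was called higher (2.02 ± 0.32, adjusted p = 0.0477, limma). DN34222_c2_g4 (STH-21) had 53.8 and 33.8 TPM in Z1, against 6.52 and 11.3 TPM in Z0, and fell just short of a call (2.18 ± 0.38, adjusted p = 0.0515, limma). Neither overlapped between conditions. DN33606_c2_g3 (STH-2) had 6.87 and 8.84 TPM in Z1, against 0.38 and 0.15 TPM in Z0, and was called higher (2.80 ± 0.28, adjusted p = 0.0340, limma). DN33606_c2_g5, with the same Swiss-Prot and Nr descriptions and the same Trinity component, had 2.60 and 3.11 TPM in Z1, against 5.87 and 7.85 TPM in Z0 (-1.02 ± 0.26, adjusted p = 0.0914, limma). The pair thus had opposite orders of the libraries, each without overlap, and only the higher one was called.

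The other abundant PR-10 unigenes carried the Pru ar 1 description. DN35646_c3_g4 had 137 and 66.1 TPM in Z1, against 10.3 and 18.0 TPM in Z0, with no overlap and no call (2.72 ± 0.47, adjusted p = 0.0513, limma). DN37333_c1_g2 overlapped, with 65.9 and 19.3 TPM in Z1, against 13.7 and 36.9 TPM in Z0 (0.64 ± 0.75, adjusted p = 0.563, limma). As in the olive-matched DN35589_c2_g1, the first library of Z1 and the second of Z0 were the high ones.

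Trinity groups contigs that share sequence into a component, so reads of close copies may have been divided among them, and here they also had different levels and orders. In DN34412_c1, DN34412_c1_g2 rose as given above, the fragment DN34412_c1_g3 had 2.46 and 1.87 TPM in Z1, against 0.38 and 0.34 TPM in Z0, and DN34412_c1_g9 had 7.46 and 8.83 TPM in Z1, against 9.46 and 11.5 TPM in Z0. The last had a log2 fold change of -0.33 ± 0.24 SE and was not called (adjusted p = 0.413, limma). DN33606_c2 also held DN33606_c2_g1, described as the birch pollen allergen Bet v 1-D/H and so outside the wording that chose the members. It was more abundant than both STH-2 unigenes, with 428 and 215 TPM in Z1, against 19.2 and 33.9 TPM in Z0, and was called higher (3.52 ± 0.46, adjusted p = 0.0395, limma). The 36 members came from 29 components, 6 of which held more than 1. TPM was also summed per component, over all its unigenes and not only the members. None of the 29 was then called in limma, and the lowest adjusted p was 0.0546. With an unadjusted p under 0.05 and more than a doubling or halving, 15 were higher and 2 lower in limma. DN28779_c2, with 12 unigenes of which 2 were members, was among the higher ones at a log2 fold change of 1.42. Its PR-1 members were at -0.87 and 0.11, so these counts describe components and not the members alone. Over all 30459 components 4 were called higher (0.0131%) and 1 lower (0.00328%). On that unadjusted criterion 11.6% were higher and 6.22% lower, beside 51.7% and 6.90% of the 29.

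**Figure D4:**
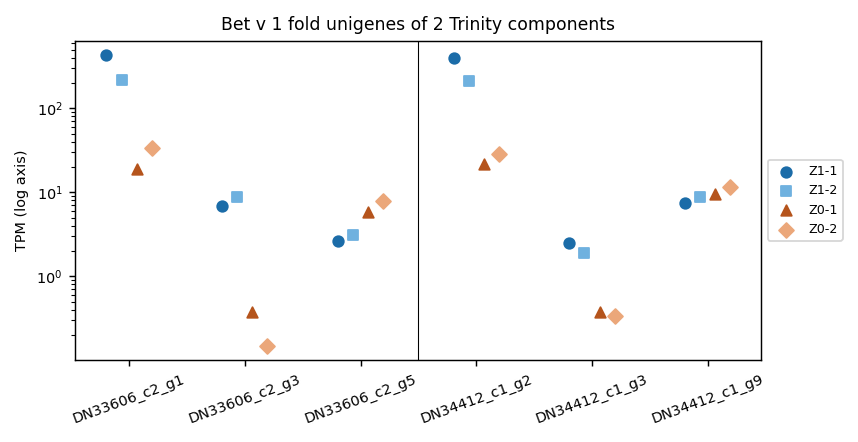
TPM on a log axis in each library for 6 unigenes of the Bet v 1 fold in the Trinity components DN33606_c2 (left) and DN34412_c1 (right). Within each component, 2 unigenes are higher in Z1 and the third is lower in both Z1 libraries, for example DN33606_c2_g3 at 6.87 and 8.84 TPM in Z1, against 0.38 and 0.15 TPM in Z0, beside DN33606_c2_g5 at 2.60 and 3.11 TPM in Z1, against 5.87 and 7.85 TPM in Z0. DN33606_c2_g1 is not among the 36.

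The MLP-like unigenes came from 1 component, and neither was called. DN25397_c0_g1 (MLP-like protein 28) had 12.2 and 28.8 TPM in Z1, against 4.80 and 0.80 TPM in Z0. Both Z1 values were above both Z0 values, but the spread within each condition was wide, and it was not called (log2 fold change 2.62 ± 0.71 SE, adjusted p = 0.0995, limma). DN25397_c0_g2 (MLP-like protein 43) stayed low and overlapped, at 0.88 and 3.45 TPM in Z1, against 2.77 and 0.56 TPM in Z0 (0.25 ± 0.65, adjusted p = 0.789, limma). In both, Z1-2 was above Z1-1 and Z0-1 above Z0-2, the reverse of DN36553_c0_g1.

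The PR-1 unigenes were scarce in all 4 libraries and none was called; before adjustment 1 was lower and none higher at p under 0.05 in limma. DN39589_c0_g1 was listed at 0.00 and 0.04 TPM in Z1, against 2.43 and 3.10 TPM in Z0 (-1.88 ± 0.34, adjusted p = 0.0546, limma). It was close to absent from both Z1 libraries and low in Z0, and it was called lower when the libraries were rescaled by median ratio or TMM. DN28779_c2_g11, a fragment of 201 nt, had 2.18 and 0.47 TPM in Z1, against 4.21 and 1.98 TPM in Z0 (-0.87 ± 0.52, adjusted p = 0.337, limma). DN28779_c2_g5 had 0.68 and 1.07 TPM in Z1, against 0.31 and 1.29 TPM in Z0 (0.11 ± 0.46, adjusted p = 0.877, limma). The last pair overlapped between conditions.

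The level of PR-1 type proteins looked quite different once the protein domain was read instead of the name. The Pfam CAP domain was annotated in 8 unigenes: the 3 PR-1 members, 1 matched to rice, and 4 outside the wording. Among the last was DN34274_c0_g2, described as the pathogenesis-related leaf protein 6 of tomato, a PR-1 type protein, with an STS14-like protein as its Nr match. It was singled out after its values were seen. It measured 10956 and 1948 TPM in Z1, against 105 and 260 TPM in Z0, more than any of the 36 members in Z1-1. Both Z1 libraries were above both Z0 libraries, but they lay 5.63-fold apart, and the difference was not called (log2 fold change 4.79 ± 0.95 SE, adjusted p = 0.0612, limma). The 7 CAP unigenes not matched to rice summed to 10960 and 1959 TPM in Z1, against 119 and 272 TPM in Z0, so that the sum is above Z0 with this unigene and the sum of the 3 named PR-1 members is below it.

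The Thaumatin domain was annotated in 22 unigenes, of which 16 were members and 3 matched rice, and the 19 not matched to rice summed to 10828 and 4974 TPM in Z1, against 668 and 1307 TPM in Z0. The Bet_v_1 domain was annotated in 26, of which 16 were members and 3 matched rice. Of the other 7, 4 had log2 fold changes below 0, and without DN33606_c2_g1 the remaining 6 summed to 54.4 and 117 TPM in Z1, against 119 and 119 TPM in Z0. In summed TPM the higher Z1 level outside the members thus lay in DN33606_c2_g1 for this domain. The scarcer DN25278_c0_g1 (log2 fold change 2.36) and DN31237_c0_g3 (1.71) were also called higher. Of the 36 members, 14 carried the Gene Ontology term abscisic acid binding (38.9%, beside 0.067% of all unigenes), and abscisic acid receptors are proteins of the same fold as PR-10. The term response to other organism was carried by 12 (33.3%, beside 0.041%) and extracellular region by 15 (41.7%, beside 1.82%). The members were chosen by protein name, and such terms go with the same names. The high shares therefore follow from the choice and are no result of the comparison. Sesame (*Sesamum indicum*) was the most frequent Nr species, with 18 members. Lengths ran between 201 and 2325 nt, and 12 members were shorter than 400 nt.

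The order of the libraries of one condition was uneven among these genes and among expressed unigenes in general. Of the 36 members, 20 (55.6%) were higher in Z1-1 than in Z1-2, beside 47.8% of all unigenes. In Z0, 23 of the 36 (63.9%) were higher in Z0-2 than in Z0-1, beside 53.0%. With a mean of at least 5 TPM, 72.2% of 18 members were higher in Z1-1, beside 59.7% of all such unigenes. For Z0-2 the shares at that level were 77.8% and 73.3%. The differences between these shares were not tested. The carlavirus share was the larger in Z1-1 of the Z1 libraries and in Z0-1 of the Z0 libraries. The part of virus, rice-matched RNA or trees in these spreads was not tested.

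PR genes are commonly read together with the salicylic acid pathway, in which NPR1 and TGA factors act on PR-1, NIMIN proteins bind NPR1, and SABP2 frees salicylic acid from its methyl ester. A list of 93 unigenes was taken from annotation text for this pathway and for systemic acquired resistance. It held 2 called higher in Z1 and 2 called lower (2.15% each, near the 3.20% and 1.80% of all unigenes), with a median log2 fold change of 0.67, beside 0.45 over all unigenes and 0.92 over the PR members. With an unadjusted p under 0.05 and more than a doubling or halving, 23 were higher and 3 lower in limma. These were 24.7% and 3.23%, beside 16.5% and 7.71% of all unigenes. Both Z1 libraries lay above both Z0 libraries in 53 (57%, beside 41.5% of all unigenes). They lay below in 13 (14%, beside 18.2%). Of the 93, 14 were set aside as matches through other names, dirigent proteins among them. The 79 left held 1 called higher and 1 lower, with a median of 0.75. They still held Dirigent protein 1 (DN24230_c0_g1 and DN24230_c0_g2), matched through the name DIR1, so not every such match was removed.

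The called pathway unigene of higher level was DN32156_c1_g4 (NIMIN-2), with 34.4 and 26.9 TPM in Z1, against 4.33 and 7.86 TPM in Z0 (log2 fold change 2.20 ± 0.34 SE, adjusted p = 0.0461, limma). DN33014_c0_g6, an SABP2 fragment of 248 nt, was listed at 0 in both Z1 libraries, against 4.60 and 11.5 TPM in Z0, and was called lower (adjusted p = 0.0453, limma). The most abundant of the list, the SABP2 copy DN36276_c0_g1, had 838 and 1127 TPM in Z1, against 407 and 520 TPM in Z0, without a call (1.08 ± 0.27, adjusted p = 0.0845, limma). SABP2 unigenes thus included a fragment listed at 0 throughout Z1 and one with both Z1 libraries above both Z0 libraries. They are only a part of the list. The next in abundance, SABP2 copies too, were DN35631_c0_g1 and DN30200_c0_g2, which overlapped, and DN33357_c1_g1 at 84.3 and 127 TPM in Z1, against 55.9 and 39.0 TPM in Z0 (adjusted p = 0.104, limma). Dirigent protein 19, of a family that steers lignan formation and is no part of the pathway, gave the other calls: DN29613_c0_g4 was higher (2.25 ± 0.35, adjusted p = 0.0468, limma) and DN29613_c0_g3 lower (-1.97 ± 0.26, adjusted p = 0.0400, limma). Outside these, NPR1 (DN31463_c1_g2) overlapped (0.45 ± 0.38). TGA2.2 (DN32520_c0_g1) was higher in both Z1 libraries (0.75 ± 0.23) and lipase-like PAD4 (DN33696_c1_g4) lower (-0.33 ± 0.24). Both Z1 libraries also lay above both Z0 libraries in aminotransferase ALD1 (DN25165_c0_g1, 2.52 ± 0.52), FMO1 (DN30158_c0_g1) and SARD1 (DN30551_c1_g1, 1.62 ± 0.73). FMO1 had 7.87 and 8.95 TPM in Z1, against 1.52 and 0.25 TPM in Z0. The same order held for DMR6 (DN28124_c3_g2, 2.13 ± 0.62) and DLO2 (DN36038_c0_g2, 1.96 ± 0.70). The paper reports both as up-regulated in Z1 by quantitative PCR. Over the list, 53 had this order and 13 the reverse. The transcription factor WRKY70 copies DN37270_c1_g1, DN35701_c1_g6, DN32652_c0_g1 and DN28346_c0_g1 had both Z1 libraries above both Z0 libraries, at 1.79 to 2.63. No unigene named here from NPR1 to WRKY70 was called.

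Other proteins of the Bet v 1 fold, 24 in number, served as the nearest relatives of PR-10 and MLP outside the wording. They include abscisic acid receptors of the PYL family, the alkaloid enzyme norcoclaurine synthase and kirola of kiwifruit. Of the 24, 4 were called higher in Z1 and 1 lower, or 16.7% and 4.17%. Over all unigenes the shares were 3.20% and 1.80%, and for PR-10 they were 21.4% and 0%. The median log2 fold change was 0.11, against 1.54 for PR-10, and that difference was not tested. DN35466_c1_g3 (PYL9) had 33.5 and 23.1 TPM in Z1, against 2.19 and 2.61 TPM in Z0 (3.09 ± 0.28, adjusted p = 0.0340, limma). DN30883_c0_g1 (PYL4) had 1.75 and 1.30 TPM in Z1, against 8.86 and 13.2 TPM in Z0, and was called lower (-2.24 ± 0.30, adjusted p = 0.0401, limma). Receptor copies thus went in both directions, and the most abundant one, DN35466_c1_g6 (PYL9), overlapped at 59.7 and 60.3 TPM in Z1, against 48.3 and 69.7 TPM in Z0.

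Besides DN33606_c2_g1, the calls higher in Z1 were kirola DN25278_c0_g1, with 7.94 and 7.54 TPM in Z1, against 0.87 and 0.56 TPM in Z0 (2.36 ± 0.25, adjusted p = 0.0358, limma), and the scarce norcoclaurine synthase DN31237_c0_g3 (1.71 ± 0.28, adjusted p = 0.0495, limma). Its more abundant neighbour DN31237_c0_g2 had the other order without a call, at 14.1 and 27.5 TPM in Z1, against 44.9 and 46.9 TPM in Z0 (adjusted p = 0.120, limma). Kirola DN26205_c0_g1 had 15.0 and 33.6 TPM in Z1, against 35.2 and 45.9 TPM in Z0 (adjusted p = 0.289, limma). Copies of one protein name thus lay on both sides of 0 in this list too.

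**Figure D5:**
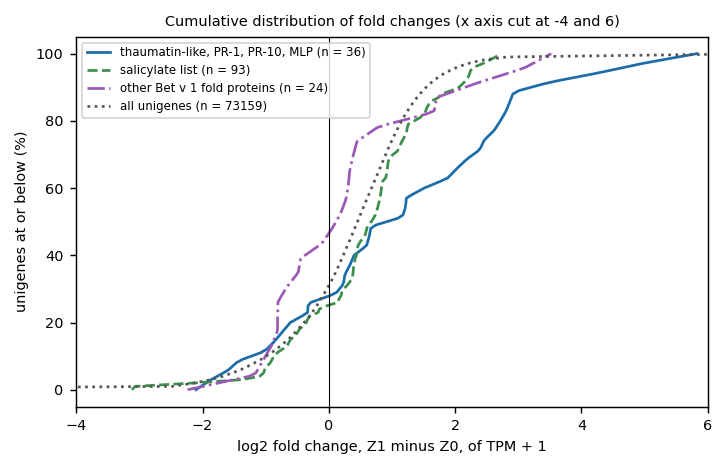
Cumulative share of unigenes (%) at or below each log2 fold change (Z1 minus Z0, of TPM + 1) for the 36 members, the salicylate list of 93, the 24 other Bet v 1 fold proteins and all 73159 unigenes, with the horizontal axis ending at -4 and 6. The member curve follows that of all unigenes below 0 and lies to the right of it above 1, with medians of 0.92, 0.67, 0.11 and 0.45 in the order named.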

How the data were processed

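Poly(A) RNA of leaves was sequenced on the Illumina HiSeq 4000 and assembled with Trinity by the authors, who kept the longest transcript of a gene as its unigene and took expression with Salmon. The authors deposited 1 table with TPM, length and annotation; their processing notes also name cutadapt and FastQC. Depth and precision from it are unknown. No sequence was at hand, so none is printed.

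Unigenes with at least 1 TPM in 1 library (all of them) were tested as log2(TPM + 1) with limma 3.58.1 in R 4.3.3, with a trended prior, no covariate and Benjamini-Hochberg adjustment; figures used matplotlib 3.10.9. The design had planned a count model only in case of counts. The fit was tested on simulated data. Alternatives covered pseudocounts, filters, scaling, thresholds, the prior, a block, left-out libraries, rice or carlavirus unigenes left out, component sums, and descriptions with kinase left out. Annotation lists were matched by text.

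Members and lists were chosen with earlier results of these data known. Named were called members, the 4 most abundant of each family, the 5 highest and 5 lowest fold changes among members without overlap and whose higher condition averaged 5 TPM or more (only 2 with fold changes below 0 qualified as lowest) and, of both other lists, the called ones at that level and the 4 most abundant. DN34283_c0_g5, DN34283_c0_g6, DN34222_c2_g4, DN11703_c0_g1, DN32442_c1_g3, DN34412_c1_g3, DN34274_c0_g2 and DN31237_c0_g3 were added after their values were seen. The same holds for the NPR1, TGA2.2, PAD4, ALD1, FMO1, SARD1, DMR6, DLO2 and WRKY70 unigenes.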

Additional observations from a re-analysis of the deposited data

How the results depend on the processing

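With 2 libraries per condition, the number of calls depended on the settings more than the direction did. Members called higher and lower in Z1 were 7 and 1 as reported, 1 and 0 with a pseudocount of 0.1, 0 and 0 with one of 5, 14 and 0 among the 25 members with at least 5 TPM in 1 library, 0 and 0 with a prior without trend, 0 and 0 at an adjusted p under 0.001, 16 and 5 with unadjusted p-values, 11 and 3 without rice-matched unigenes, and 0 and 0 with TPM summed per component. Median-ratio scaling gave 7 and 3, TMM scaling 6 and 3, and removal of carlavirus-matched unigenes 6 and 3, in each case with the PR-1 unigene DN39589_c0_g1 and DN34283_c0_g6 joining DN25939_c0_g1 as lower. Leaving out 1 library gave 0 to 3 called higher and 0 called lower, the lone library of a condition being assumed to vary like the other condition. Over all unigenes 2344 and 1317 were called; with the 5 TPM filter 3940 and 1509, and with either a pseudocount of 5 or no trend 0 and 0. The replicate block gave 11 and 1; the libraries share only a number in the column names (r of same-numbered deviations -0.09 over unigenes and -0.50 over the members), and no source says that a number marks a shared tree or day. With no filter, fold thresholds of 1.5 and 4, and kinase descriptions left out, the counts stayed at 7 and 1.

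Scaling moved the median of all unigenes to 0.12 (TMM) and 0.23 (median-ratio), against 0.45 as deposited. That of the members moved to 0.51 and 0.65, against 0.92. Removal of carlavirus-matched unigenes moved the median of all unigenes to 0.255 and that of the members to 0.673. Of the 20 named members, 16 kept their sign under every alternative in which they were fitted, and the other 4, none of them called, did not. DN25397_c0_g2 was at -0.037 with TMM scaling and ranged between -0.38 and 0.89 with 1 library left out. DN28779_c2_g5 was at -0.013 with median-ratio scaling, -0.078 with TMM scaling and -0.004 without carlavirus-matched unigenes, and ranged between -0.30 and 0.51. DN35589_c2_g1 was at -0.06 with TMM scaling and ranged between -0.66 and 1.45, and DN37333_c1_g2 between -0.22 and 1.501. The cause of these changes was not tested. No PR-1 member reached 5 TPM in a library, so that filter gave no PR-1 value.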

Other observations

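The 4 unigenes that matched the wording and were left out as rice had their signal in Z1-2 and next to none in the other libraries. They were 3 thaumatin-like proteins and 1 PR-1, at 2.47 to 8.51 TPM in Z1-2 and at 0.17 TPM or less in every other library.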
